A study of Mus musculus with 4 samples.

Results

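The transcription factors that establish and keep the identity of Sertoli cells and of the gonad were followed in mouse testis. They comprise the genes Sox9, Sox8, Wt1, Gata1, Gata4, Gata6 and Dmrt1, which were taken by symbol, each from the only probe set that names that gene alone. All 7 were measured, out of 19938 genes in all. The testes came from 2 Lhcgr KO samples and 2 control WT samples, all from male mice. Lhcgr encodes the receptor for luteinizing hormone, through which the pituitary drives testosterone synthesis in Leydig cells. Both groups had been given busulfan, an alkylating drug that depletes germ cells, at 44 mg/kg, and were killed 4 weeks later. The labels give no strain, no age and no kind of Lhcgr allele. They also do not say that each replicate is another animal, so the p-values rest on a spread between samples that may be technical. Total RNA was read on 1-colour Affymetrix whole-transcript arrays as a single intensity per probe set, and values are given in those intensity units or as their log2.

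Sertoli cells are the supporting cells of the seminiferous tubule. In the fetal testis the SOX factors switch the supporting lineage to the male fate, with WT1 and GATA4 acting upstream of and beside them, and DMRT1 guards that fate after birth. In mice, Sertoli cells that lose DMRT1, or both SOX9 and SOX8, can turn on ovarian genes such as Foxl2. The comparison asks whether a testis without the luteinizing hormone receptor differs in these factors when germ cells are depleted.

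Control WT replicate 2 stood apart in rete testis and epididymis markers, of which 13 of 18 were highest on that array. The 18 summed to 2069 and 2164 in the knockout, against 2032 on control WT replicate 1 and 15670 on replicate 2. Spint4, which had the widest gap, measured 5.23 and 5.14 log2 units in the knockout, against 5.07 and 12.56 in wild type. Every member's value without that array is given further on.

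None of the 7 factors passed the test in the Lhcgr KO testes (limma, Benjamini-Hochberg adjusted p under 0.05 over all genes). Across all genes, 3.1% passed, 0.963% higher and 2.14% lower in the knockout. That is 618 genes, a count that was 18 and 23 without Lhcgr KO replicates 1 and 2 and 1039 without control WT replicate 1, while no factor passed in any of these fits. Before adjustment, 1 of the 7, Gata6, and 22.7% of all genes were under 0.05 in limma. The log2 fold changes of the 7, knockout over wild type, ran from -0.10 for Gata1 to 0.35 for Gata6, with a median of 0.16, against a median of 0.072 over all genes. With the 25% of genes of lowest intensity left out, the median over the other genes was 0.020 and that of the factors stayed at 0.16. Their 95% confidence intervals ran in all from a 0.73-fold to a 1.56-fold level in the knockout. The intervals of 6 factors lay within 1.5-fold in either direction, and the one that reached further was that of Gata6. Adjusted p-values lay between 0.177 and 0.773. Such p-values do not show that the groups are equal, and the 2 arrays per group limit the precision.

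**Figure D1:**
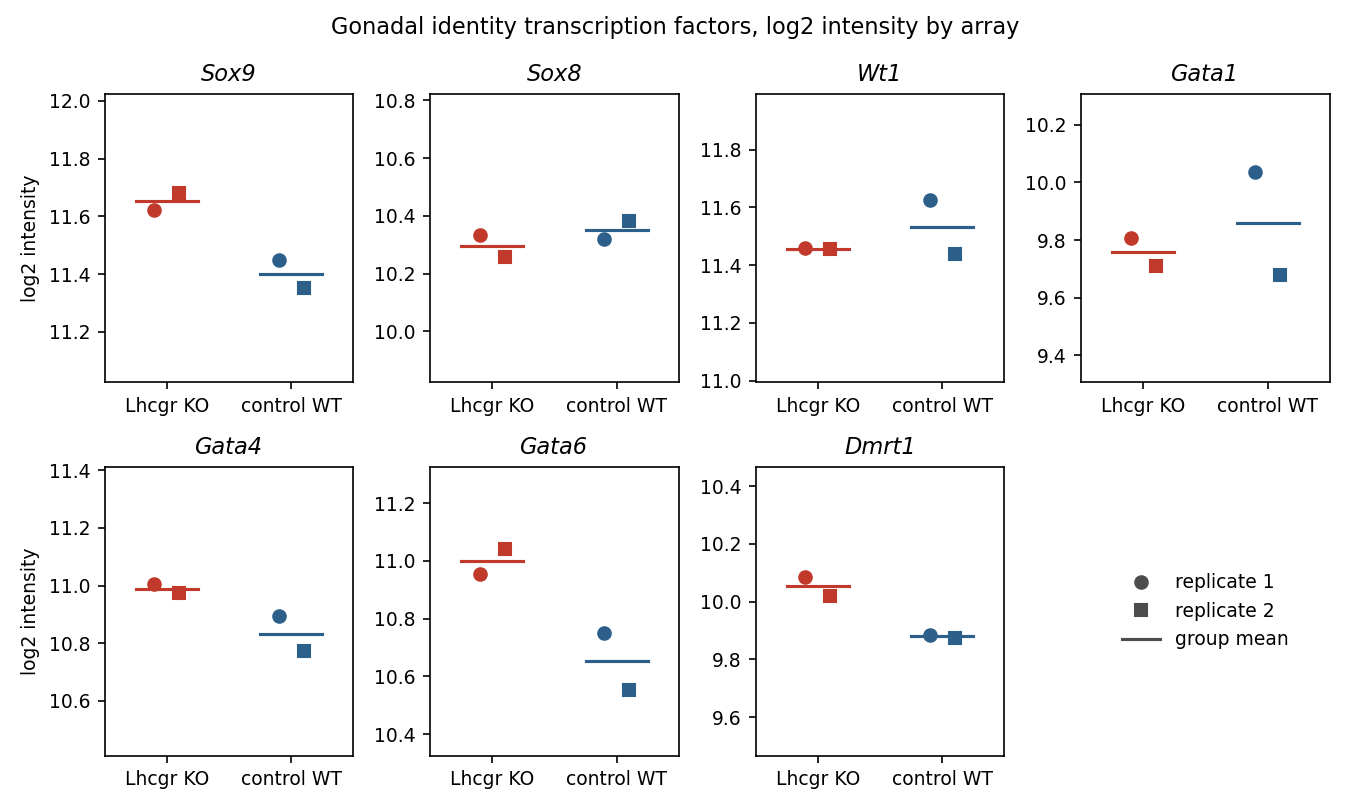
Log2 intensity (vertical axis) of each factor on every array, with Lhcgr KO on the left of each panel, control WT on the right and lines at the group means. Each panel spans 1 log2 unit, and the groups are apart for Sox9, Gata4, Gata6 and Dmrt1 and overlap for Sox8, Wt1 and Gata1.

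Sox9 is the SOX family factor that drives Sertoli cell differentiation. It measured 3152 and 3285 intensity units on the Lhcgr KO arrays, against 2794 and 2612 on the control WT arrays. Both knockout arrays lay above both wild-type arrays. The log2 fold change was 0.25 ± 0.11 (SE, n = 2 arrays per group), which is 1.19-fold with an interval of 0.989 to 1.44, and did not pass the test (limma adjusted p = 0.238).

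Sox8, a close relative that partly stands in for Sox9 in Sertoli cells, measured 1291 and 1225 units in Lhcgr KO testes, against 1278 and 1335 in control WT testes. The groups overlapped. Its log2 fold change was -0.055 ± 0.11, with a fold interval of 0.801 to 1.16 (limma adjusted p = 0.773). The knockout difference of Sox9 exceeded that of Sox8 by 0.31 log2 units. The gap of Sox9 over Sox8 was 1.29 and 1.42 log2 units on the knockout arrays, against 1.13 and 0.97 on the wild-type arrays. An exact two-sided permutation test over the arrays gave p = 0.33, the smallest value that 2 arrays per group allow.

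Wt1 encodes the zinc finger protein that the developing gonad and adult Sertoli cells require. It measured 2818 and 2807 units in Lhcgr KO testes, against 3160 and 2775 in control WT testes. Both knockout values fell between the wild-type ones. The log2 fold change was -0.075 ± 0.12, with a fold interval of 0.779 to 1.16 (limma adjusted p = 0.713), and it was 0.019 without control WT replicate 1.

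Gata4 and Gata6 encode zinc finger factors present in Sertoli cells and in steroid-making Leydig cells. Gata4 measured 2053 and 2010 units in Lhcgr KO testes, against 1902 and 1749 in control WT testes. Gata6 measured 1984 and 2109 units in Lhcgr KO testes, against 1722 and 1503 in control WT testes. For both genes the knockout arrays lay above the wild-type arrays, and control WT replicate 2 was the lowest of the 4. The log2 fold change of Gata4 was 0.16 ± 0.11, a 1.11-fold level with an interval of 0.923 to 1.34 (limma adjusted p = 0.415). That of Gata6 was 0.35 ± 0.12, a 1.27-fold level with an interval of 1.04 to 1.56 (limma adjusted p = 0.177). Gata6 had the lowest p of the 7 and did not pass the test. The change of Gata4 minus that of Gata6 was -0.19 log2 units, and the exact permutation p was again 0.33.

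Gata1 is known from red cells, platelets and mast cells, and in the mouse testis it is made by Sertoli cells after birth. It measured 895 and 837 units in Lhcgr KO testes, against 1049 and 820 in control WT testes. The wild-type arrays differed more from each other, by 0.35 log2 units, than the group means did. The log2 fold change was -0.10 ± 0.15, with a fold interval of 0.730 to 1.19 (limma adjusted p = 0.687). It was 0.077 without control WT replicate 1, which leaves only the wild-type array with the high epididymis markers, and -0.28 without replicate 2. The sign of the change thus turned with the wild-type array used. The change of Gata1 was lower than that of Gata6 by 0.45 log2 units and lower than that of Gata4 by 0.26, each with an exact permutation p of 0.33. The p-values of the 4 gene pairs compared are all equal, at the smallest value that 2 arrays per group allow. The test could thus pass no pair and cannot decide whether their changes differ. Benjamini-Hochberg adjustment over the 4 would leave the values as they are.

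Dmrt1, which Sertoli cells and spermatogonia both use, measured 1087 and 1037 units in Lhcgr KO testes, against 945 and 939 in control WT testes. Both knockout arrays lay above both wild-type arrays, which were nearly alike. The log2 fold change was 0.17 ± 0.11, a 1.13-fold level with an interval of 0.940 to 1.35 (limma adjusted p = 0.360).

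Both knockout arrays exceeded both wild-type arrays for 4 of the 7 factors, where 36.8% of all genes did so. The opposite held for 0 of the 7 and for 22.4% of all genes. With each array centred on its median, 4 factors lay above and 2 below, while the shares of all genes became 25.8% and 28.9%. The factors' count below thus moved with this rescaling, while their count above stayed at 4. The median log2 fold change of the factors was then 0.090, against 0.0065 for all genes. After quantile normalization, 4 factors lay above and 0 below, and the shares of all genes were 27.6% and 23.7%. The median of the factors was then 0.21, against 0.023 for all genes.

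**Figure D2:**
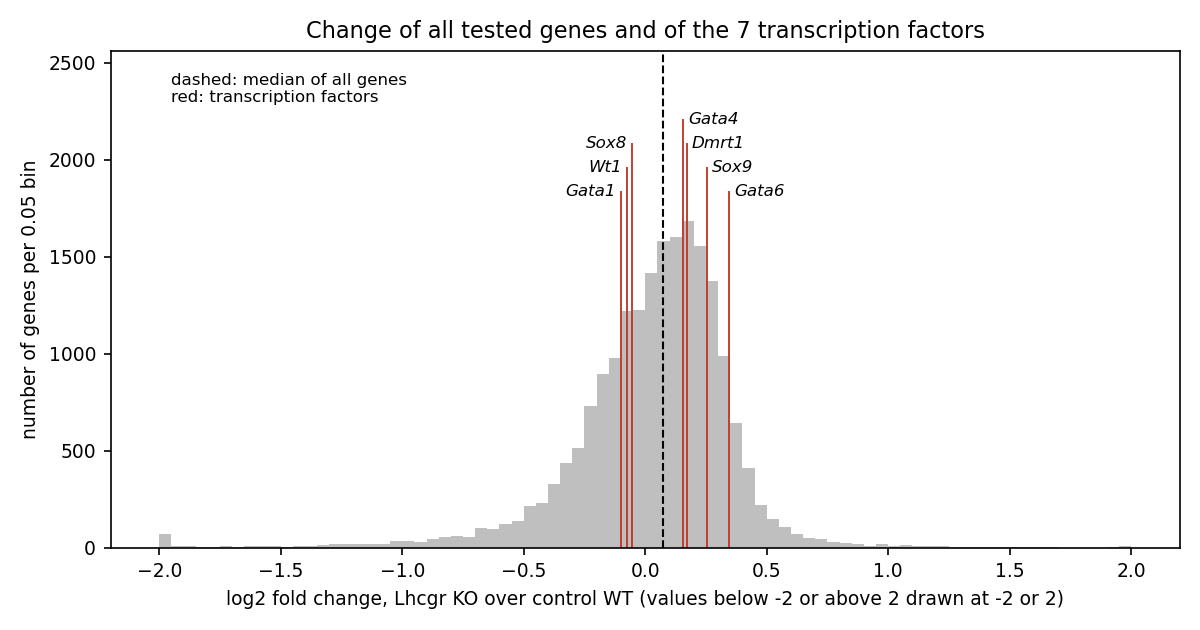
Number of genes (vertical axis, per bin of 0.05) by log2 fold change, Lhcgr KO over control WT (horizontal axis), for all 19938 genes in grey (values beyond the axis are drawn at its ends), with red lines at the 7 factors and a dashed line at the median of all genes, 0.072. The factors lie in the body of the distribution, between -0.10 and 0.35.

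Promoter windows from RefSeq (GRCm38.p6) were at hand for only 2 of the 7 factors, Sox8 and Gata1. The groups of both overlapped, and no factor whose groups were apart had a window, so the windows cannot be set against the changes. Each holds the 250 bases before the transcription start, 5′ to 3′ on the minus strand, at chr17:25570687-25570936 for Sox8 and chrX:7967911-7968160 for Gata1. Capitals mark matches on either strand to the GC box GGGCGG, which Sp1-type zinc finger factors bind.
Sox8: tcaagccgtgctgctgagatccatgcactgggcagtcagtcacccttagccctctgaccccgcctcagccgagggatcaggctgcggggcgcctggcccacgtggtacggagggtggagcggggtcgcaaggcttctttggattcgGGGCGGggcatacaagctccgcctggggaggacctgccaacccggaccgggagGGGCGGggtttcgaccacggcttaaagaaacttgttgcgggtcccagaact
Gata1: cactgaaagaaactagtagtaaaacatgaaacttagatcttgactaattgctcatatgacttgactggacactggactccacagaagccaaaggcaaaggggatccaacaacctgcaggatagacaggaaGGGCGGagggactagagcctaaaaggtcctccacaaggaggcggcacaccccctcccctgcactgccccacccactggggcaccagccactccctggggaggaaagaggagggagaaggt
The GC box occurred 2 times in the Sox8 window and 1 time in the Gata1 window, and in 32.7% of 32851 such windows. The GATA motif, NGATAN with A or T first and A or G last, was in neither window and in 26.5% of all windows, and the SOX motif AACAAT was in neither and in 9.4% of all. These matches describe the letters only, and no binding was measured.

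Genes that these factors are known to regulate, or that mark Sertoli cell function, gave 1 higher and 1 lower of 29 measured, with a median log2 fold change of 0.061. Both knockout arrays lay above both wild-type arrays for 12 of the 29 and below for 4, where 36.8% and 22.4% of all genes did so. Amh, anti-Müllerian hormone and a known target of SOX9, WT1 and GATA4, measured 9.90 and 9.66 log2 units in Lhcgr KO testes, against 8.86 and 9.10 in control WT testes. It rose, with a log2 fold change of 0.80 ± 0.14 (limma adjusted p = 0.0398). With control WT replicate 1 or either knockout array left out, the log2 fold change was 0.68 to 0.92 and the call was lost (adjusted p 0.0628 to 0.203). Trf, the iron carrier transferrin, measured 8.24 and 8.25 log2 units in the knockout, against 10.15 and 10.92 in wild type. It fell, with a log2 fold change of -2.29 ± 0.24 (limma adjusted p = 0.00746). With Lhcgr KO replicate 1 or 2 left out, the log2 fold change was -2.29 or -2.30 and the call was lost, as for most called genes. With control WT replicate 1 or 2 left out, it was -2.68 or -1.91 and the call held. The interval of Trf, -2.86 to -1.72, lay below those of all 7 factors. Inha, the inhibin alpha chain of Sertoli cells, measured 13.01 and 13.00 log2 units in the knockout, against 12.95 and 12.95 in wild type, and was named after its values were seen.

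**Figure D3:**
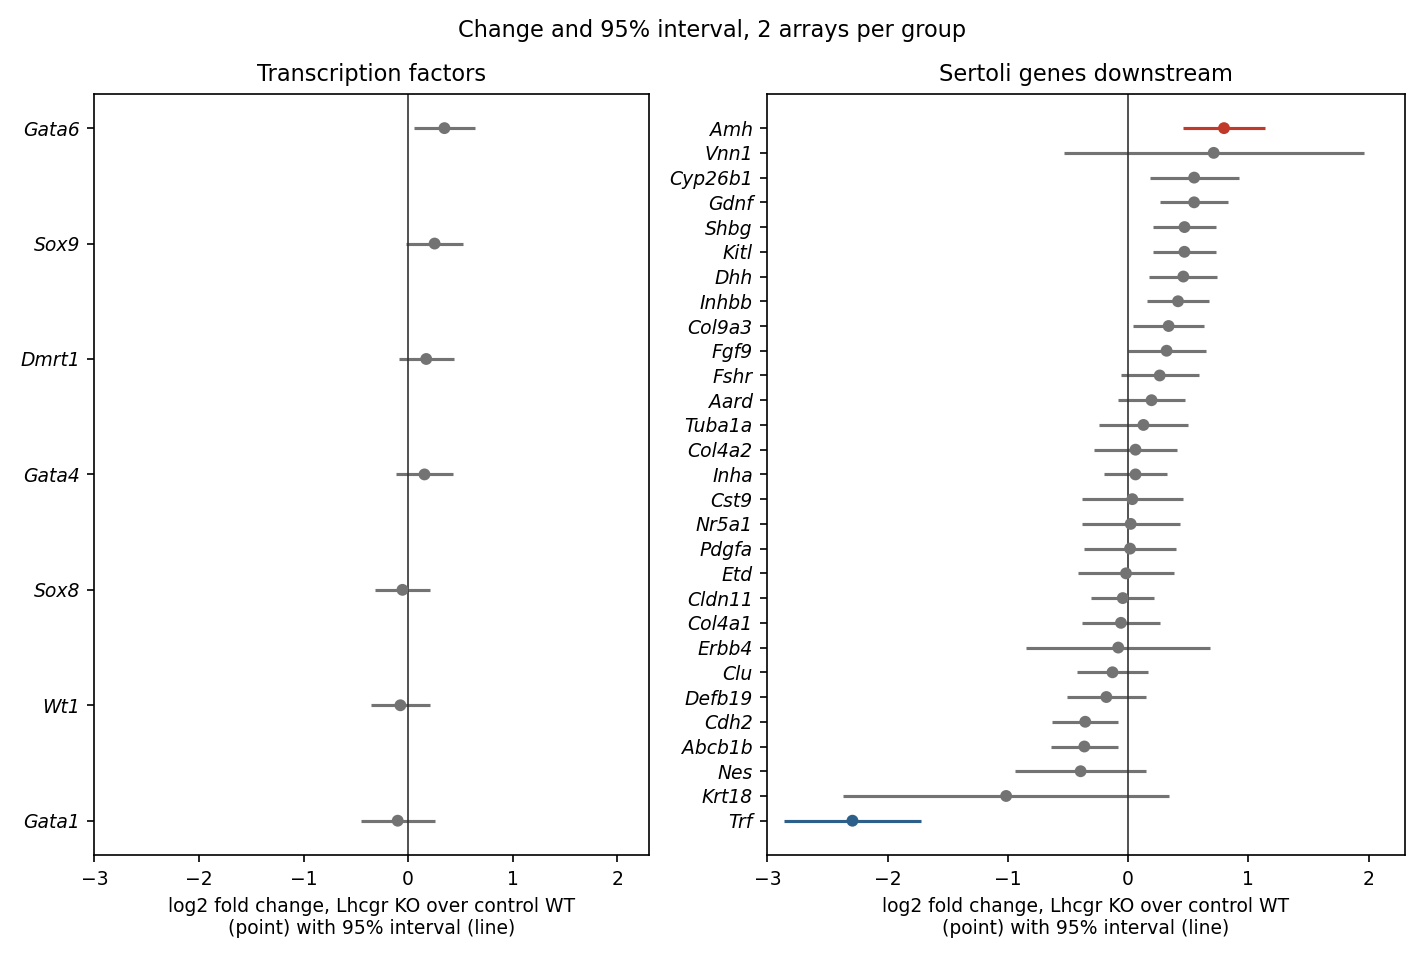
Log2 fold change, Lhcgr KO over control WT, with its 95% interval (horizontal axis) for the 7 factors on the left and 29 Sertoli genes on the right, coloured red or blue where the adjusted p was under 0.05. The factors' intervals stay between -0.45 and 0.64, while Amh lies at 0.80 and Trf at -2.29.

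Of 25 other measured transcription factors and cofactors of gonad development, 0 rose and 1 fell, with a median of 0.071. Both knockout arrays lay above both wild-type arrays for 10 of them and below for 4 (36.8% and 22.4% of all genes). Of the 25, 10 and 6 were highest on Lhcgr KO replicates 1 and 2, and 3 and 6 on control WT replicates 1 and 2. Control WT replicate 2, the array with the high epididymis markers, thus did not stand out by this count. Among its 6, Emx2, Pax8 and Osr1 measured 7.90, 9.26 and 11.35 log2 units on it, against 6.13, 7.79 and 10.59 on control WT replicate 1. Gadd45g, a stress-inducible gene needed for timely Sry expression in the mouse fetal gonad, measured 7.16 and 6.96 log2 units in Lhcgr KO testes, against 7.77 and 7.94 in control WT testes. It fell, with a log2 fold change of -0.79 ± 0.13 (limma adjusted p = 0.0298). With either knockout array or control WT replicate 2 left out, the log2 fold change was -0.89 to -0.70 and the call was lost (adjusted p 0.0602 to 0.219). The GATA4 partner Zfpm2, named for its role after its values were seen, measured 8.25 and 7.96 log2 units in the knockout, against 7.78 and 7.64 in wild type (limma adjusted p = 0.182). The nuclear receptor Nr5a1, chosen in the same way, measured 10.47 and 10.25 log2 units in the knockout, against 10.56 and 10.12 in wild type (limma adjusted p = 0.946).

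Among 25 relatives in the SOX, GATA and DMRT families and related zinc finger genes, 1 rose and 0 fell, with a median of 0.12. Both knockout arrays lay above both wild-type arrays for 12 of them and below for 3 (36.8% and 22.4% of all genes). The riser was Sox18, a SOX factor of endothelial cells, which measured 8.91 and 9.23 log2 units in Lhcgr KO testes, against 8.02 and 8.09 in control WT testes. Its log2 fold change was 1.02 ± 0.14 (limma adjusted p = 0.0181). With Lhcgr KO replicate 1 or 2 left out, the change was 1.18 or 0.85 and the call was lost, as for most called genes. With control WT replicate 1 or 2 left out, it was 0.98 or 1.05 and the call held. The interval of Sox18, 0.68 to 1.36, lay above those of Sox9 and Sox8.

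Of 15 measured genes of ovarian identity, 1 rose and 0 fell, with a median of 0.16. Both knockout arrays lay above both wild-type arrays for 8 of the 15 and below for 2 (36.8% and 22.4% of all genes). Esr2, estrogen receptor beta, measured 7.28 and 7.37 log2 units in Lhcgr KO testes, against 6.57 and 6.38 in control WT testes. Its log2 fold change was 0.85 ± 0.12 (limma adjusted p = 0.0207). With Lhcgr KO replicate 1 or 2 left out, the change was 0.89 or 0.80 and the call was lost, as for most called genes. With control WT replicate 1 or 2 left out, it was 0.94 or 0.75 and the call held. Foxl2, the ovarian factor that SOX9 and DMRT1 hold down, was named for its role after its values were seen. It measured 7.25 and 7.67 log2 units in the knockout, against 7.33 and 7.34 in wild type, and did not pass (log2 fold change 0.13 ± 0.16, limma adjusted p = 0.631). Each value of Esr2 and of Foxl2 lay below the median of its own array, so both readings rest on low signal.

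The genes whose values over the 4 arrays were most like those of Gata6, by the root mean square difference of log2 values centred on each gene's mean, were Mirt2 (0.00311), Krtap10-10 (0.00366) and Fpr-rs7 (0.00693). For Sox9 they were Mir448 (0.00536), S1pr2 (0.00591) and Tor1aip2 (0.00592). In all, 508 genes lay within 0.05 log2 units of Gata6 and 1100 of Sox9, so the named genes are the nearest of many.

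Markers of the cells a testis can hold were read on the same arrays. The tissue held Sertoli RNA on every array, with Cldn11, a tight junction protein of Sertoli cells, at 12.33 and 12.38 log2 units in the knockout, against 12.39 and 12.41 in wild type (named after its values were seen). Of 21 Sertoli markers, 1 rose, Amh, and 5 fell, Trf, Drd4, Eppin, Tsx and Corin, with summed intensities of 59920 and 64520 in the knockout, against 73400 and 68180 in wild type. The list's median log2 fold change was 0.035, of the other sign than the difference in sums. For 9 of the 21, both knockout arrays lay above both wild-type arrays, and for 8 below (36.8% and 22.4% of all genes). The sums include the 5 that fell, so they do not stand for the other markers. Among those 5, Eppin measured 9.17 and 9.92 log2 units in the knockout, against 12.11 and 11.77 in wild type. Of 10 Leydig cell markers 0 rose and 6 fell, with sums of 4904 and 3635 in the knockout, against 27960 and 14850 in wild type, and a median log2 fold change of -1.87. With either knockout array left out, 0 Sertoli and 2 Leydig markers passed, and 10 Leydig markers passed without control WT replicate 2. In bulk tissue, fewer cells of a type and less RNA per cell cannot be told apart, and the part of Leydig cells in the values of Gata4 and Gata6 was not tested.

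Of 11 red cell markers 1 fell, Alas2, which makes heme in red cell precursors, with sums of 1259 and 1539 in the knockout, against 1775 and 1856 in wild type. The median log2 fold change of the red cell list was 0.20, of the other sign than the difference in sums. The sums include Alas2 (log2 fold change -2.66), so they do not stand for the other markers. Both knockout arrays lay above both wild-type arrays for 8 of the 11 and below for 1 (36.8% and 22.4% of all genes). All red cell markers but Alas2 and Ermap lay below the median of each array, so the readings of those markers rest on low signal. Of 13 mast cell and eosinophil markers none passed, with sums of 2542 and 3047 in the knockout, against 3097 and 2682 in wild type. Of 8 platelet-lineage markers none passed, with sums of 1299 and 1546 in the knockout, against 1501 and 1929 in wild type. The part of these cells in the value of Gata1 was not tested. None of 20 spermatogonial markers passed, with sums of 5680 and 4845 in the knockout, against 5172 and 4492 in wild type, and their part in the value of Dmrt1 was not tested. Most mast cell, platelet-lineage and spermatogonial markers also lay below the median of each array, so their readings rest on low signal. The sums of these lists come largely from the other markers.

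Of 12 macrophage markers 5 fell (Csf1r, Cd68, Lyz2, Folr2 and C1qb), of 12 endothelial markers 1 rose (Sox18), of 8 coelomic surface markers 1 fell (Lrrn4) and of 9 peritubular and smooth muscle markers none passed. Both knockout arrays lay below both wild-type arrays for all 12 macrophage markers, where 22.4% of all genes did so. Their median log2 fold change was -0.86. All 12 were highest on control WT replicate 2, by a median of 0.29 log2 units over control WT replicate 1. Of the 18 rete testis and epididymis markers 1 fell (Epcam). With either knockout array left out, none of these macrophage, endothelial, surface or epididymis markers passed, and without control WT replicate 1 the counts were 10, 3, 3 and 12. Genes in these marker counts were named after their values were seen.

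Without control WT replicate 2, the array with the high epididymis markers, the log2 fold changes were 0.20 for Sox9, -0.024 for Sox8, -0.17 for Wt1, -0.28 for Gata1, 0.095 for Gata4, 0.25 for Gata6 and 0.17 for Dmrt1, and none passed the test. Lhcgr itself is not analysed here, and the knockout label has no check from its own transcript. Array medians lay between 198.3 and 215.1 units and the lowest value was 16 on each array, while the factors ran from 820.4 to 3285.

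**Figure D4:**
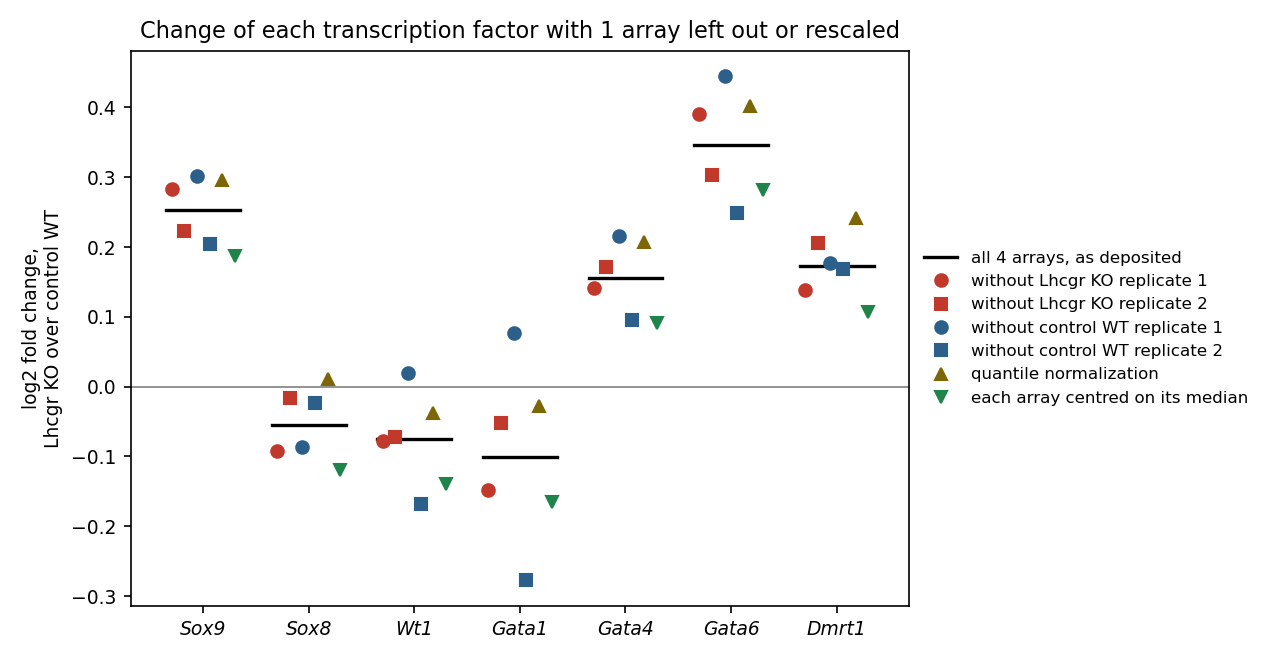
Log2 fold change, Lhcgr KO over control WT (vertical axis), of each factor (horizontal axis) from all 4 arrays as deposited (line), with each array left out in turn and after 2 rescalings (symbols). Sox9, Gata4, Gata6 and Dmrt1 stay above 0 in each of these, while Sox8, Wt1 and Gata1 cross 0 in 1 of them each.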

How the data were processed

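Total RNA of 4 testis samples was hybridised to 1-colour whole-transcript arrays, per the labels' protocols. The deposited table holds a linear intensity per probe set and array. The submitters' processing notes name the build mm9. How probes were summarized and normalized is not given in the sources used here. Of 28856 probe sets, the platform annotation lists 1 symbol for 21789, several for 1621 and none for 5446, and only the first kind was used. Symbols were checked by Entrez number against RefSeq (GRCm38.p6), where 21698 matched and 0 changed. A gene with several probe sets, which holds for 999 of 19938, was given the one with the highest mean, and each of the 7 factors has 1.

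Intensities were taken to log2 and tested with limma 3.58.1 in R 4.3.3 (lmFit, eBayes with a constant prior, two-sided, Benjamini-Hochberg over 19938 genes, threshold 0.05), after a check on simulated arrays. Differences between gene pairs were tested by exact permutation over arrays, and the pairs other than Sox9 with Sox8 were added after the data were seen. Members and gene lists were chosen with earlier results of these data known. Genes were named by rule: the 7 factors, then in each list that is not of cell type markers up to 4 called genes with the largest change (or the 2 with the lowest p where none was called), then the genes with the most similar pattern. Genes named outside the rule (Inha, Cldn11, Zfpm2, Nr5a1, Foxl2, Spint4, Emx2, Pax8, Osr1 and the called cell type markers) were chosen after their values were seen. Alternatives covered scaling, offsets, probe set choice, a filter on low values, the threshold, the replicate block and each array left out.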

Additional observations from a re-analysis of the deposited data

How the results depend on the processing

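Under 15 alternatives, none of the 7 factors passed the test, with adjusted p from 0.133 to 0.972, and 102 of 105 fitted changes kept their sign. The other 3 were Sox8 at 0.011 after quantile normalization, and Wt1 at 0.019 and Gata1 at 0.077 without control WT replicate 1. The fit without that array leaves control WT replicate 2, the array with the high epididymis markers, as the only wild-type array. Leaving out 1 array at a time, Wt1 ranged from -0.17 to 0.019 and Gata1 from -0.28 to 0.077. The cause of these turns was not tested beyond the array left out. Of all genes, 618 were called, 192 higher and 426 lower. With the lowest intensity less 1 subtracted before log2 they were 389, 109 and 280, and at the looser threshold of 0.1 they were 1244, 482 and 762. Leaving out 1 array, the counts ran from 18 to 1039, from 2 to 313 and from 16 to 726, with fewer arrays in the fit and the lone array of a group assumed to vary like the other group. The lowest counts came without a knockout array, 18 without replicate 1 and 23 without replicate 2, and the highest without control WT replicate 1. In the labels, same-numbered arrays shared only a number. The correlation of their deviations was 0.021 over genes, which with 2 arrays per group cannot show whether they shared a batch. With the number as a replicate block, 572 genes were called, and Amh no longer passed (limma adjusted p = 0.0631), while no factor's call changed. Calls ranged over the alternatives from 0 to 4 for gonadal factors (1 as reported), 0 to 2 for family relatives (1), 0 to 5 for Sertoli genes (2) and 0 to 3 for ovarian genes (1). Among marker lists, they ranged from 0 to 7 for Sertoli (6), 2 to 10 for Leydig (6), 0 to 1 for red cell (1), mast cell (0), platelet-lineage (0) and spermatogonial (0) markers, and 0 to 12 for rete testis and epididymis (1). Amh also missed the threshold with the lowest intensity subtracted (adjusted p = 0.0652). For other marker lists the ranges were 0 to 10 for macrophage (5), 0 to 3 for endothelial (1), 0 to 2 for peritubular (0) and 0 to 3 for coelomic surface markers (1). Background readings were not used here, and the lowest factor value, 820.4 units, lies above the array medians.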
